A study of Caenorhabditis elegans with 2 samples.

Results

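The genes described here encode chaperones of the cytosol and the endoplasmic reticulum (ER) of Caenorhabditis elegans: hsp-1, hsp-90 (formerly daf-21), hsp-110, hsp-3 and hsp-4. They are 5 of 19973 protein-coding genes on the nuclear chromosomes. They were chosen by name, with their FLT-1 peaks in these lists already known, so the peaks that chose them are described here without a test. FLT-1, also called BAZ-2, is a chromatin protein that was mapped by chromatin immunoprecipitation with sequencing. The strain was OP797, which carries the integrated transgene wgIs797, a fosmid copy of flt-1 fused to TY1, EGFP and 3xFLAG, with unc-119(+) as the marker and unc-119 (tm4063) in the background. Whole early embryos, 1 hour old after egg bleaching, formed 1 group with 2 biological replicates, and no control library was analysed here. The signal comes from a tagged transgenic copy pulled down with antibody to GFP, and strong binding in few cells cannot be told apart from weak binding in many.

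HSP70 proteins bind exposed stretches of unfolded clients and release them in cycles of ATP hydrolysis that J-domain proteins start and nucleotide exchange factors, HSP110 among them, complete. HSP90 acts later, on clients such as kinases and receptors that are nearly folded. The cytosolic genes are induced through heat shock factor, HSF-1 in the worm, which binds repeats of a short motif called the heat shock element. The ER genes are induced through the unfolded protein response, in which XBP-1 is a main transcription factor. hsp-1 encodes the constitutive cytosolic HSP70, and hsp-3 and hsp-4 both encode the ER HSP70 known in mammals as BiP, of which hsp-4 is the more inducible and is widely used as an ER stress reporter.

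Every gene of the 5 had an entry before its own start in the ranked list of both replicates together, which holds 48126 candidate peaks before any threshold and in which 47.3% of all protein-coding genes had such an entry. Only hsp-1, hsp-3 and hsp-90 also had one in the pooled thresholded list of 1083 peaks; hsp-110 was reached in the thresholded list of replicate 2 alone, and hsp-4 in none of the 4 thresholded lists. A gene was counted when a peak summit lay between 1000 bp upstream and 200 bp downstream of one of its annotated transcript starts, and the pooled thresholded list reached 3.76% of all protein-coding genes in this way. The 3 of 5 here cannot be read against that share, because the genes were chosen on these peaks. Signal is the authors' own value for each peak, whose scale the sources used here do not state. Values are given below both as such and as percentiles within their own list, since the scales of different lists differ.

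The sequence under the 5 leading summits is shown because all but that of hsp-4 holds a heat shock unit or the core of the unfolded protein response element. The hsp-4 window holds neither and is shown beside the others. The sequence was picked for display on those matches, so their number is not a result. The share of all summits with any of these matches nearby was not counted, and shares for single motifs are given below. Each line spans 50 bp on either side of the summit in the pooled ranked list, on the strand of the gene and read from WBcel235. Capitals mark any match, on either strand, to the paired heat shock units TTCNNGAA and GAANNTTC, the core of the unfolded protein response element, TGACGTG, the TATA box TATAAA or the CCAAT box.
hsp-1, chrIV:17278558-17278658, plus strand: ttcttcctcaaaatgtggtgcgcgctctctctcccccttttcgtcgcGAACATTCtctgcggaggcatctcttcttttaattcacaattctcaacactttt
hsp-90, chrV:14685700-14685800, plus strand: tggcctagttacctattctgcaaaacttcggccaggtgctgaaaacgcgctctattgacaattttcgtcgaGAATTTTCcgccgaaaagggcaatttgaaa
hsp-110, chrIII:8447120-8447220, minus strand: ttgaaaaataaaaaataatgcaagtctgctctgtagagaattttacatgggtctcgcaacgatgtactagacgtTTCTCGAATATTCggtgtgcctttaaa
hsp-3, chrX:6092172-6092272, minus strand: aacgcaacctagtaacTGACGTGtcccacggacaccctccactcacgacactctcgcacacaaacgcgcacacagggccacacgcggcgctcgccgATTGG
hsp-4, chrII:7353042-7353142, minus strand: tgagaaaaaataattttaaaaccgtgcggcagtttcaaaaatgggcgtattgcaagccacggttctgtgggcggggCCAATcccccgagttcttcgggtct

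The 3 cytosolic genes had the paired unit GAANNTTC in this window and the ER genes did not. The windows were picked for display on such matches, so this split is not a result. hsp-4 had the unit elsewhere in its promoter, 243 bp from the summit. In the windows the middle of GAANNTTC lay 1 bp from the summit at hsp-1, 25 bp at hsp-90 and 33 bp at hsp-110. Each lay on the side of the gene. hsp-110 and hsp-4 have no promoter summit in the pooled thresholded list. GAANNTTC occurred in 4.80% of the 1083 windows of this width around the summits of that list, and TTCNNGAA in 3.6%. At hsp-110 the match extended to a 3-unit heat shock element, with TTC again after 2 further bases, which 2.12% of those windows and 7.68% of 19972 coding promoters hold. Outside the windows, further 3-unit elements lay 213 and 546 bp from the summit at hsp-1 and 152 bp from it at hsp-110. The promoter of hsp-90 held none, and its TTCNNGAA units lay 88 and 408 bp from the summit. The core TGACGTG lay 31 bp upstream of the summit at hsp-3, and 1.29% of summit windows and 9.42% of promoters hold it. Outside the windows shown, the same core lay 336 bp from the summit at the cytosolic gene hsp-110, 72 bp past its start, and 367 bp from the summit at hsp-4, 83 bp before its start. These matches describe letters in a window and show no binding by another factor.

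hsp-1 had the highest signal of the 5 and was the only one present in all 8 lists. Its peak (chrIV:17278567-17278656) lay in intergenic sequence, with the summit 351 bp upstream of the gene's single annotated start. The pooled signal was 103, which is rank 462 of the 48126 ranked entries and rank 354 among the 1083 thresholded peaks. Replicate 1 gave 61.7 at its 99.1st percentile and replicate 2 gave 42.4 at its 98.6th, so the peak stood near the top of both. The summits of the replicates lay 349 and 383 bp upstream of the start. No other coding gene had its promoter window over this summit. Among small and non-coding RNA genes the nearest was F26D10.23, a non-coding RNA gene, 106 bp away. Its start lay 195 bp from the summit, nearer than that of hsp-1, and its window held the summit too. The lists therefore cannot assign the peak to hsp-1 alone. At 90 bp the called peak was narrow beside the median width of 230 bp in the list.

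A further peak lay inside hsp-1. It sat in an exon, 1593 bp past the start (chrIV:17280437-17280666), with a pooled signal of 43.6, and it was in the pooled thresholded list but in neither replicate's own. The promoter peak was 2.36 times as high. The intronic snoRNA gene F26D10.24 was not under it. Exon peaks of this kind, outside the gene's own promoter window, were found at 34 coding genes (0.170%). Of these, 11 (0.0551% of all coding genes) also had a promoter peak in the pooled thresholded list. Those 11 were 1.47% of the 750 coding genes with a promoter peak in that list.

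hsp-90 was among those 11 as well, with both peaks at nearly the same height. The promoter peak (chrV:14685635-14685864) had a pooled signal of 63.6, the 98.2nd percentile of the ranked list, and its summit lay 410 bp upstream of the start of the shorter transcript, C47E8.5.1. A longer transcript, C47E8.5.2, starts further upstream, and relative to that start the summit lay 832 bp downstream, in its first intron. The replicates differed here. Replicate 2 gave 39.2 at its 98.4th percentile, whereas replicate 1 gave 21.7 at its 90.2nd and did not list the peak past its threshold. The summit also lay 265 bp upstream of the start of C47E8.4, a coding gene on the opposite strand, which is the closer of the pair.

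The exon peak of hsp-90 (chrV:14687473-14687702) lay 1428 bp past the same start and had a pooled signal of 58.8. Its replicate support was the other way round. Replicate 1 gave 41.7 at its 98.5th percentile and listed it past its threshold, while replicate 2 gave 20.7 at its 93.2nd and did not. The conservative list, whose 977 peaks all have the position and score of an entry in the replicate-against-replicate list, kept the exon peak and left the promoter peak out.

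hsp-110, which encodes the exchange factor that works with cytosolic HSP70, had a promoter peak of almost the same pooled signal as hsp-90. Its signal was 62.4, at the 98.1st percentile of the ranked list, and the summit lay 261 bp upstream of the single start (chrIII:8447055-8447284). Replicate 2 gave 41.8 at its 98.6th percentile, close to its value for hsp-1. Replicate 1 gave 16.3 at only its 71.1st percentile, the widest gap among the 5 genes. The pooled list put the irreproducible discovery rate (IDR), the authors' measure of how poorly a peak repeats, at 0.0457, and the list read as replicate against replicate put it at 0.534; for hsp-90 these were 0.00146 and 0.0259. Every peak of the pooled thresholded list had an IDR of 0.01 or below by its score, so near-equal pooled signals fell on opposite sides of the threshold. Which of the 2 ranked lists made from both replicates is pooled and which compares them is not stated, and was inferred from the values.

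The percentile of replicate 2 minus that of replicate 1 was 27.5 points at hsp-110 and 8.18 points at hsp-90. At hsp-1 and hsp-3 it was -0.488 and 0.692 points, so their replicates placed them alike, and at hsp-4 it was -9.52 points.

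The hsp-110 peak lies in a stretch between genes read in opposite directions. Its summit was 183 bp upstream of rpn-3, which encodes a subunit of the proteasome's regulatory particle, and so lay nearer to rpn-3 than to hsp-110. The non-coding RNA gene C30C11.14 overlapped the edge of the peak, with its start 75 bp from the summit. Which of these starts the peak belongs to cannot be told from the lists.

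**Figure D1:**
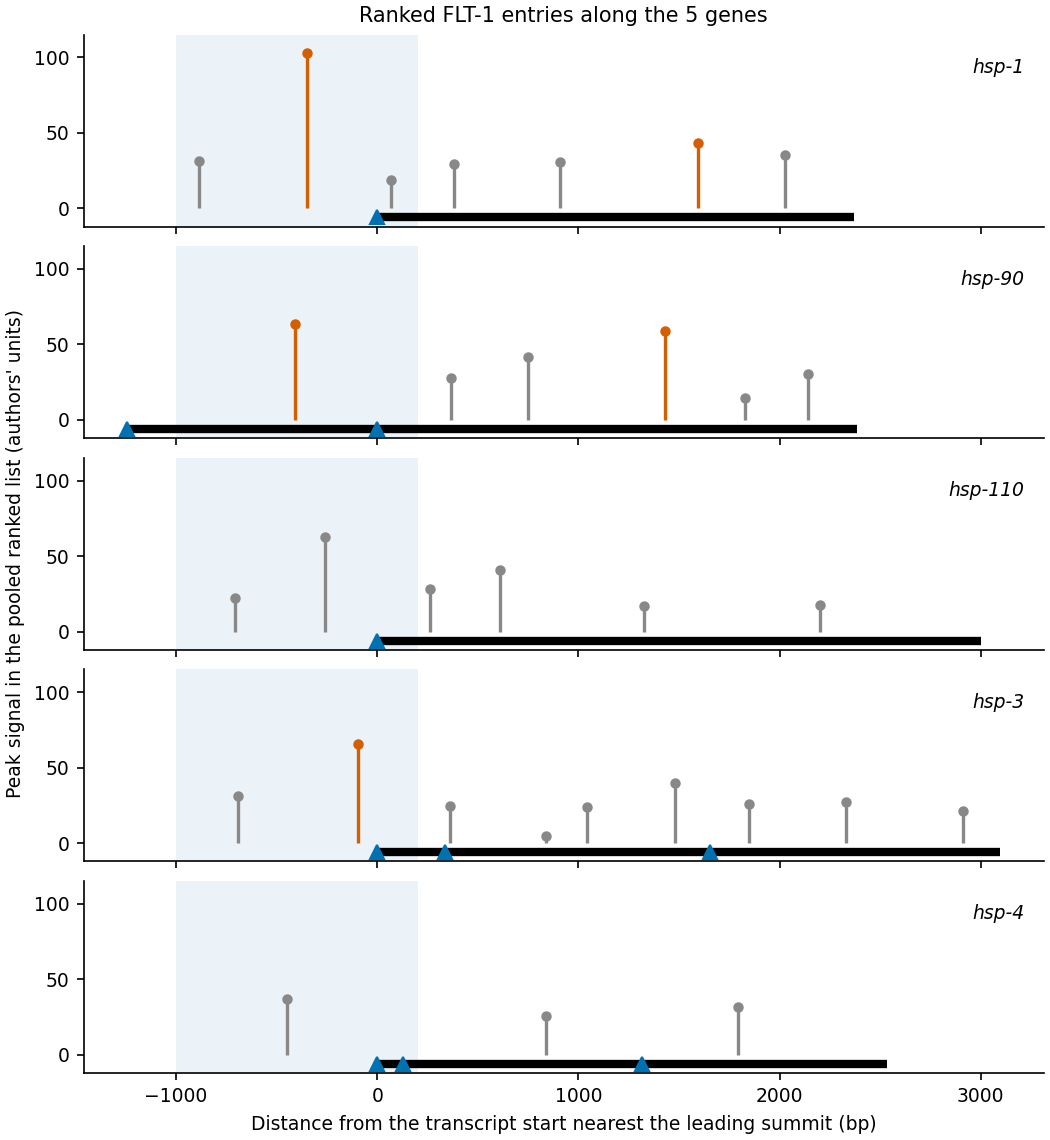
Signal of every entry of the pooled ranked list (vertical lines, authors' units) along each gene, by distance in bp from the transcript start nearest to the leading summit. Black bars are the annotated genes, blue triangles their transcript starts, the shaded band the promoter window of that start, and orange marks entries that are also in the pooled thresholded list. The highest line of each gene lies upstream of the start, at 103 for hsp-1 and 36.8 for hsp-4, and the exon entry of hsp-90 reaches 58.8.

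hsp-3 had the peak closest to its start of the 5. The summit lay 98 bp upstream of the outermost of its 3 annotated starts (chrX:6092107-6092336), with a pooled signal of 65.4 at the 98.2nd percentile of the ranked list. Replicate 1 gave 29.6 at its 97.1st percentile and replicate 2 gave 32.5 at its 97.8th. Both replicates thus ranked it high and alike, yet neither listed it past its own threshold, with an IDR of 0.243 in replicate 1 and 0.0906 in replicate 2. The pooled list put it at an IDR of 0.00662 and the replicate-against-replicate list at 0.00245, and so it was in both the pooled and the conservative thresholded lists, the latter of which reached 3.42% of coding genes. No other gene shared the peak; the summit lay 1078 bp upstream of C15H9.5, on the opposite strand, just outside the window of that gene. Because its starts are spread over the gene, hsp-3 had 7 promoter entries in the pooled ranked list, of which the second highest, at 39.8, lay 173 bp upstream of the innermost start.

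hsp-4, the other ER HSP70 gene, had the lowest signal of the 5 in the pooled list. The entry (chrII:7352977-7353206) had a pooled signal of 36.8 at the 93.1st percentile of the ranked list, and its summit lay 447 bp upstream of the outermost start. Replicate 1 gave 20.1 at its 86.4th percentile and replicate 2 gave 14.6 at its 76.9th. Both fell well under the values of hsp-3, and the pooled IDR was 0.106. A gene-body entry of hsp-4, 1794 bp past the same start, was nearly as high, at 31.5, so the promoter entry exceeded it only 1.17 times. The order of the pair turned between replicates: the gene-body entry had 13.4 at the 50.9th percentile of replicate 1, below the promoter entry, and 21.4 at the 93.9th percentile of replicate 2, above it. No coding gene shared the promoter entry.

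Set against all coding genes, the members held different places. Ordering the coding genes with a promoter entry in the pooled ranked list by their highest one placed hsp-1 at 203, hsp-3 at 490, hsp-90 at 511, hsp-110 at 536 and hsp-4 at 1657 of 9438. Equal or higher signal was found at 1.02% of all coding genes for hsp-1, 2.45% for hsp-3, 2.56% for hsp-90 and 2.69% for hsp-110, and at 1657 genes for hsp-4. The order of hsp-3, hsp-90 and hsp-110 rested on pooled signals from 62.4 to 65.4 and was not the same in the replicates. Replicate 1 placed hsp-3 at 757, hsp-90 at 1910, hsp-4 at 2437 and hsp-110 last of the 5 at 4273. Replicate 2 placed hsp-110 at 299, hsp-90 at 359, hsp-3 at 530 and hsp-4 last at 3349. hsp-1 led the 5 in both replicates, at 152 and 282.

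**Figure D2:**
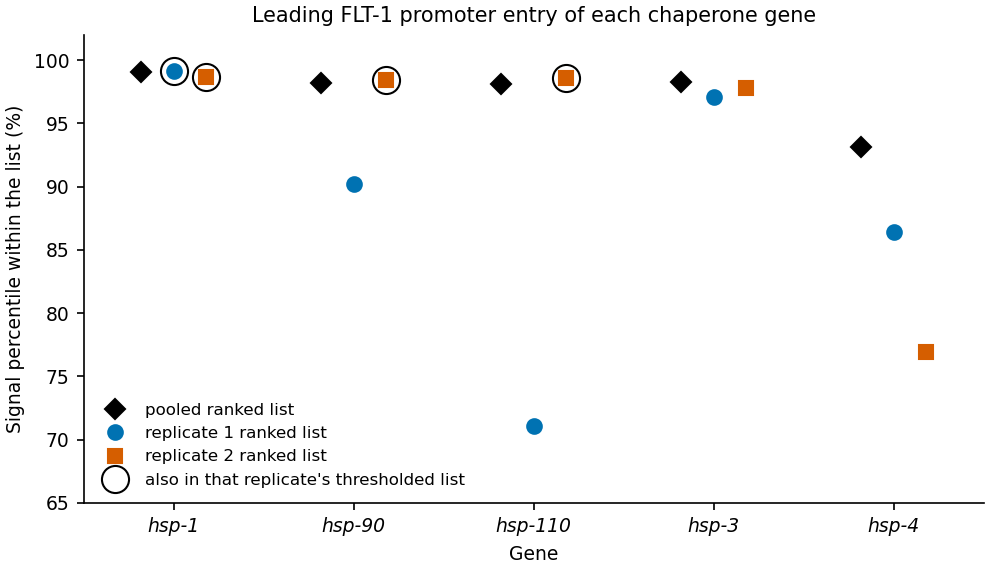
Signal percentile of the leading promoter entry of each gene within the pooled ranked list (black diamonds), that of replicate 1 (blue circles) and that of replicate 2 (orange squares); rings mark entries that the same replicate's thresholded list also holds. The vertical axis starts at 65%. hsp-1 and hsp-3 lie together in both replicates, while hsp-110 is at 71.1 in replicate 1 and 98.6 in replicate 2.

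The genes next to the members in signal, 2 on each side in the pooled thresholded list, are given without those on a member's own peak, which leaves out C47E8.4 beside hsp-90. Around hsp-1 they were hsp-60 (103), the mitochondrial chaperonin, icd-2 (103), a subunit of the nascent polypeptide-associated complex, cyc-1 (103), which encodes cytochrome c1, and F56G4.6 (103). Around hsp-3 they were akir-1 and gclm-1, with one signal between them, and mcm-10 and teg-1, likewise with one, all at 65.4, and around hsp-90 ekl-6 (64.5), hmp-1 (63.9), elks-1 (63.5) and Y71G12B.30 (63.5). Likeness here is nearness of pooled signal over 1 list and nothing else.

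**Figure D3:**
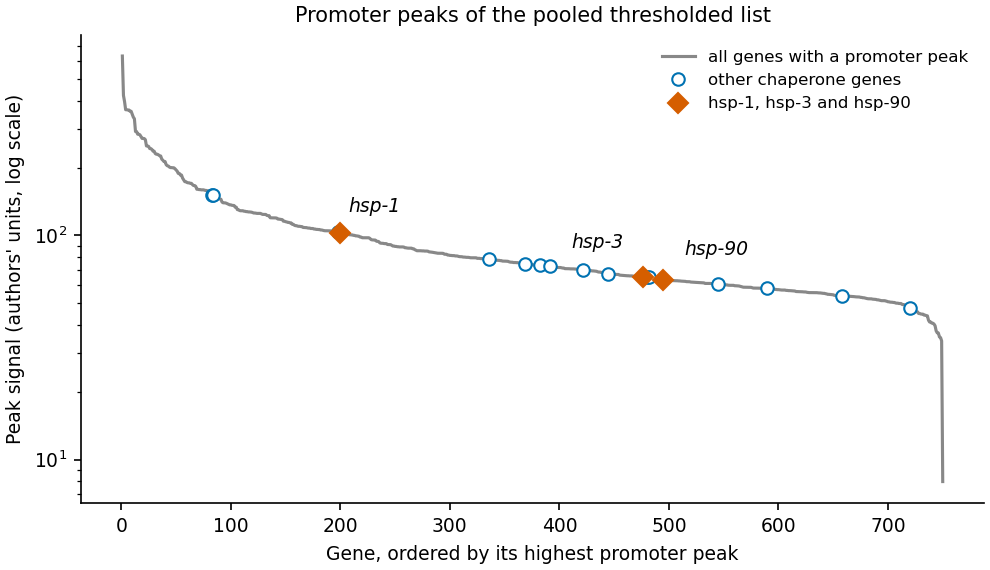
Signal (authors' units, log scale) of the highest promoter peak of each of 750 coding genes in the pooled thresholded list, ordered from high to low. Diamonds mark hsp-1, hsp-3 and hsp-90. Open circles mark the other chaperone genes listed below, among them hsp-60, which lies under the diamond of hsp-1. Chaperone genes outside that list are not marked. hsp-1 is at 103 and the other 2 diamonds are at 65.4 and 63.6.

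The other genes of the chaperone system carried promoter peaks in several classes. Of 69 further chaperone, co-chaperone and regulator genes, named from general knowledge with earlier results of these data known, 15 had a peak in the pooled thresholded list (21.7%, with an exact Clopper-Pearson 95% interval of 12.7 to 33.3 for counting error only), beside 3.76% of all coding genes. The 15 genes rest on 14 peaks, which the interval does not allow for, and the share was not tested. The 69 are not every gene of the system. The J-domain genes dnj-29 (129), dnj-28 (110), dnj-9 (90.4) and dnj-14 (71.1) also had such a peak but are not among them. The signals of the 15 genes ran from 47.3 to 151 with a median of 70.4, and their summits from 663 bp upstream to 16 bp downstream. Most of these peaks were shared: 13 of the 15 genes had another coding gene whose window held the same summit, and this was so for 55.1% of all 750 coding genes with a peak. When each peak counted for the nearest coding gene alone, 6 of the 69 were counted, beside 2.71% of all coding genes. The 6 were F44E5.4, bag-1, cct-2, dnj-13, enpl-1 and pdi-2. The peaks of the others among the 15 lay nearer to the start of another coding gene. The thresholded list of replicate 1 reached 6 of the 69 (background 2.03%) and that of replicate 2 reached 9 (2.47%). Both counts include bag-1 and hsp-60, the 2 genes with a peak in both lists (1.32%).

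In the cytosolic HSP70 class the inducible genes F44E5.4 and F44E5.5 shared 1 peak between their opposed starts (chrII:11759412-11759487), with a signal of 151, above that of hsp-1. Replicate 2 gave 109 there, at its 99.7th percentile, and listed it past its threshold. Replicate 1 gave 37.7, at its 98.3rd, and did not. The 2 percentiles of this peak lay closer together than those at hsp-90 or hsp-110, but percentiles are compressed near the top of a list. By rank it stood at 844 in replicate 1 and 118 in replicate 2, where hsp-90 stood at 4787 and 637. The nearness of its percentiles therefore does not show closer agreement of the replicates. All 50-base stretches of this peak occur once in the genome, as do all those of the leading peaks of hsp-1, hsp-90, hsp-110 and hsp-3; at hsp-4 the share was 92.8%. hsp-70, the other gene of the class, had no peak in the pooled thresholded list.

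Among 14 further ER genes, 3 had a peak. These were pdi-2 (67.5, summit 31 bp upstream), enpl-1 (65.2, 16 bp downstream) and pdi-3 (60.8, 663 bp upstream), of which pdi-2 and pdi-3 encode protein disulfide isomerases and enpl-1 the ER form of HSP90. The first was past the threshold in replicate 1 alone, the last in replicate 2 alone, and enpl-1 in neither. The signals lay close to that of hsp-3, and the peak of pdi-2, like that of hsp-3, was shared with no other coding gene.

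Co-chaperones had a peak at 4 of 14 genes. bag-1, a nucleotide exchange factor of HSP70, had 70.4 at 170 bp upstream, with 37.3 in replicate 1 and 37.5 in replicate 2, each past the threshold. The J-domain genes dnj-19 (74.7) and dnj-13 (72.8) were each past it in 1 replicate, and ahsa-1 (58.1), the activator of HSP90 ATPase, in neither. The CCT chaperonin, which folds actin and tubulin, had a peak at 3 of 8 subunits, namely cct-2 (78.2), cct-1 (73.6) and cct-7 (65.3), and prefoldin at 1 of 6, pfd-1 (53.8).

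No peak was found at the 14 small heat shock protein genes or at the 8 regulators, which include hsf-1, xbp-1, ire-1, pek-1 and atf-6. With so few genes the exact 95% interval, for counting error only, reaches 23.2% for the former and 36.9% for the latter. The interval does not allow for shared promoters, although hsp-16.2 and hsp-16.41 had the same ranked entry before their starts. Whether the promoter sequence of these genes occurs only once in the genome was not checked. These absences were not tested against the 3.76% of all coding genes. The small heat shock genes had a ranked promoter entry at 6 of 14, beside 47.3% of coding genes. Among the genes without a peak in the pooled thresholded list, the highest ranked entries were those of hsp-110 itself, dnj-12 (54.5), cct-8 (50.2), pfd-3 (45.7) and fkb-6 (42.2). Of these, dnj-12 and cct-8 were past the threshold in replicate 2 alone, as hsp-110 was. The mitochondrial chaperones hsp-60 and hsp-6 had pooled signals of 103 and 47.3, the former past the threshold in both replicates and the latter in neither.

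**Figure D4:**
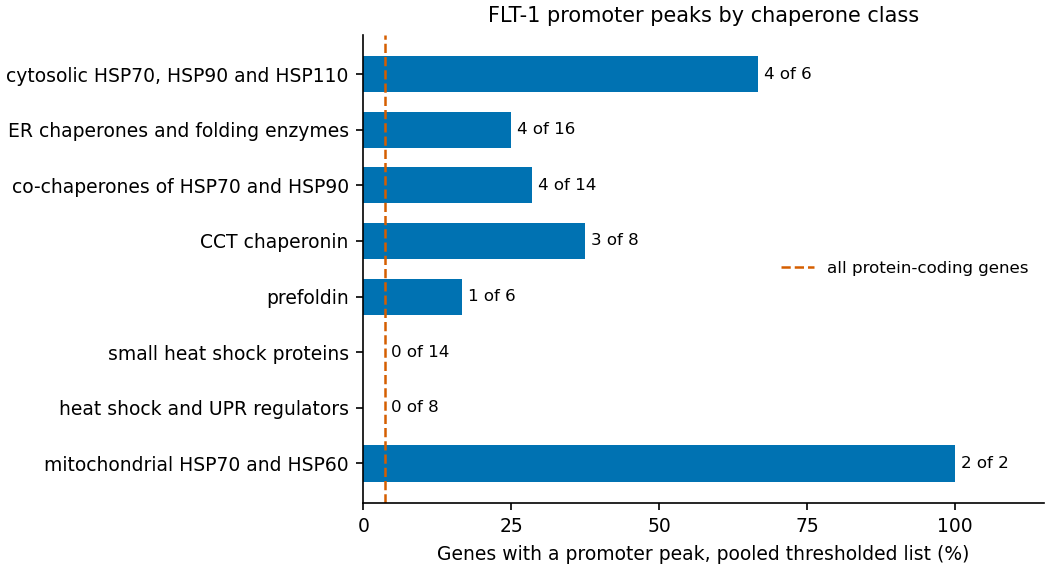
Share of genes with a promoter peak in the pooled thresholded list, in percent, for each class of chaperone genes, the members included; the text beside a bar gives the genes with a peak and the genes in the class. The dashed line is the share among all coding genes, 3.76%. The members were chosen on these peaks, so the bars of the cytosolic and ER classes cannot be read against it. Without the members the cytosolic class has 2 of 3 genes with a peak, which they share, and the ER class 3 of 14. The small heat shock proteins and the regulators have 0 genes with a peak.

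The base composition under the leading summits differed among the members. The windows of the same width around pooled thresholded summits had a median GC content of 51.5%, with quartiles of 47.5 and 55.4, where the genome has 35.4%. The window of hsp-3 was at 62.4%, and 97.8% of the windows were at or below it. hsp-110, at 35.6%, lay at the other end, with 3.32% of windows at or below it. hsp-4 was at 49.5%, hsp-1 at 45.5% and hsp-90 at 44.6%. No window of the 5 held TATAAA, which 4.06% of summit windows hold, although each promoter held it somewhere, as 80.0% of promoters do. CCAAT was in the windows of hsp-3 and hsp-4 (and in 175 of the 1083 windows) and in all 5 promoters (92.5% of promoters).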

How the data were processed

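FLT-1 was mapped by ChIP-seq in early embryos with 2 biological replicates, numbered as in the labels; where nothing more is given, their spread is that of 2 samples. The 8 deposited peak lists (4 thresholded, 4 ranked by IDR) are on ce11, per the file lists that accompany them; fragment sizes were 200 to 800 bp, per the labels. Aligner, caller and read depth: not given in the sources used here; thus no value has a counting interval except shares of genes. Each peak's signal was deposited by the authors, with its scale not stated. The deposited score follows 125 times the log2 of 1/IDR to within 1 in the pooled ranked list, as checked on the values; the deposited −log10 IDR column gave the IDR values. Which ranked list compares the replicates was not stated: it was taken to be the one whose highest input signals equal those of the replicate lists. The 8 columns of its separate inputs served for this alone.

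Peaks on nuclear chromosomes were set against WBcel235 with Ensembl release 115 transcripts, named from RefSeq by gene identifier for 46881 of 46926 genes, in Python 3.11.15 with NumPy 2.4.6, pandas 2.3.3, SciPy 1.17.1 and Matplotlib 3.10.9. Coordinates are 1-based. The leading entry of a gene was its highest promoter entry in the pooled ranked list, matched to other lists by an overlap of at least 1 bp. Percentiles are mid-ranks within a list. The assignment was tested on simulated summits. Motifs were searched on both strands in windows of 50 bp on either side of a summit and in promoters of 1201 bp. The motif CCACG was also searched; it was in 4 of the 5 promoters (59.0% of promoters) and 2 of the windows (23.2%). The 2 paired heat shock units were in 57.9% and 57.2% of promoters. The genes named are the 5 members, genes sharing their peaks, genes next to them in signal, and listed chaperone genes with a peak or among the 5 highest without one. Some further J-domain genes and small heat shock genes are named to show limits of the list. Members and lists were chosen with earlier results of these data known, so no test was run; alternatives are given in the closing section.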

Additional observations from a re-analysis of the deposited data

How the results depend on the processing

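Narrowing the promoter to 250 bp each way left 1 member (hsp-3) with a pooled thresholded peak in place of 3, 0 with one in both replicate lists in place of 1, and 8 other chaperone genes in place of 15. Above the median signal the counts were 1 (hsp-1) and 4. With the nearest coding gene alone the members numbered 2 (hsp-1 and hsp-3) and the other chaperone genes 6. Without replicate 1 the members with a peak were hsp-1, hsp-90 and hsp-110, so hsp-3 was lost and hsp-110 gained. Without replicate 2 only hsp-1 was left. Leaving out either replicate gave 1 to 3 members and 6 to 9 other genes. Percentiles then ranged from 98.6 to 99.1 (hsp-1), 90.2 to 98.4 (hsp-90), 71.1 to 98.6 (hsp-110), 97.1 to 97.8 (hsp-3) and 76.9 to 86.4 (hsp-4), and summit offsets from -383 to -349, -415 to -392, -265 to -262, -94 to -78 and -440 to -432 bp in the same order. Within the pooled thresholded list the percentiles were 67.4, 34.2 and 36.8 for hsp-1, hsp-90 and hsp-3. The offset of hsp-90 turned to 832 bp with the longest transcript alone, which has another start. The causes of the other changes were not tested. A promoter of 500 bp, the peak interval in place of the summit and the conservative list kept the counts within 1.5 times. The peak interval could only keep or raise a count. An IDR of 0.01 on the ranked list also kept the counts, but every pooled thresholded peak already met that level by its score. That setting is therefore not a separate check. No paired analysis was possible because there was 1 group. Depth is unknown, so an entry under the threshold does not show that binding is absent.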
